A study of Mus musculus with 19 samples.

Results

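The mouse expression array used here carries, beside its probes for annotated genes, oligonucleotide probes for long intergenic noncoding RNA (lincRNA) regions, each named by an interval of the mouse genome (build mm9) and a strand, F or R. Every probe that was not a control and whose name had this form was taken, with probes on the sex chromosomes left out. This gave 15604 region probes of 55681 probes on the array, 7890 on strand F and 7714 on strand R. They covered 3387 regions, of which 1042 had probes on both strands, 1189 on F alone and 1156 on R alone. A strand of a region held 1 to 10 probes (median 3), and the regions measured 62 to 7128487 bp (median 7451 bp). As 2015 of the regions overlapped another region, neighbouring region names often describe 1 stretch of the genome and their probes are not independent.

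LincRNAs are transcribed from the stretches between protein-coding genes and are not translated into protein. Many are expressed at low levels and in few tissues, and some are kept in the nucleus, where they can act on chromatin, transcription or splicing. Intergenic transcription can run on 1 strand or on both, so an interval with a transcript of unknown direction is commonly probed on each.

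RNA came from the lungs of 18 adult male mice of the MutaMouse strain, which carries a transgenic reporter for mutation assays, at about 12 weeks of age. The mice were given olive oil (D0, 5 mice) or a mixture of 8 polycyclic aromatic hydrocarbons (PAHs) by oral gavage for 28 days, at 15 (D1, 4 mice), 30 (D2, 5 mice) or 60 (D3, 4 mice) mg/kg-bw/day in benzo[a]pyrene (BaP) equivalents, and lungs were collected 72 h after the last dose. The transgene and the vehicle were common to all 4 groups. Each of 19 arrays carried lung RNA in red and the same reference RNA, a pool made from 11 lines of cultured mouse cells, in green. Values are log2 ratios of lung over reference, and a change is the difference of mean log2 ratios from D0. Mouse 35 of D3 had 2 arrays, which were averaged. Mouse 23 is labelled D2 although its number falls among the D1 numbers, and it was kept as labelled. The study states group sizes of 5, 5, 4 and 4 in rising order of dose, which placing mouse 23 in D1 would give. As whole lung was measured, fewer cells of a type and less RNA per cell cannot be told apart.

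The lungs carried the markers of the labelled tissue: all 8 lung epithelium genes were well above background in all mice. Cyp1a1, a xenobiotic-metabolizing enzyme induced through the aryl hydrocarbon receptor, was 3.61 higher at D3 on the log2 scale (adjusted p = 0.000839), and Cdkn1a, a cell cycle inhibitor and p53 target, was 3.12 higher (adjusted p = 1.49e-10; limma). At D3, 4 of 5 neutrophil markers were called higher, and 3 of 8 markers of cytotoxic and NK lymphocytes were called lower. Of the 4 measured markers of alveolar macrophages 1 was called lower, and of the 4 of endothelium 1 was called higher. The mean log2 ratio of the neutrophil list was 2.04 to 2.75 in D0 mice and 2.82 to 4.13 in D3 mice, and that of the cytotoxic list 0.91 to 1.76 and 0.16 to 0.58. The macrophage list was 4.70 to 5.10 and 4.40 to 4.60, and the endothelium list 4.81 to 5.19 and 5.16 to 5.41. All 5 neutrophil markers, 5 of 8 cytotoxic markers and the 4 measured markers each of macrophages and endothelium were well above background in all mice, and no marker of these lists was below it in every mouse. The mean log2 ratio per mouse of the 9 cardiac muscle markers was 2.28 to 3.06 in D0 mice and 0.40 to 4.00 in D3 mice. Of the 9, 6 were well above background in all mice. The part of these cell types in the results on region probes was not tested. The arrays lay on 3 slides that each held all groups, but dose rose with the position of the array across each slide, so position and dose cannot be told apart.

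By the well above background mark of the scanner software, a minority of region probes gave a signal in lung. By its positive and significant mark a majority did, 4953 of 7890 F probes and 5187 of 7714 R probes. The scanner software marked 5699 region probes (36.5%) as well above background in at least 4 mice of 1 group, against 71.7% of the 26536 probes of mRNA transcripts on the same arrays. All 18 mice detected 4092 region probes (26.2%), and 5790 (37.1%) were detected in no mouse. The share per mouse ran from 33.1% to 48.3% for region probes and from 69.3% to 76.7% for mRNA probes. The groups overlapped: the region share was 40.2% ± 4.70 (SD, n = 5) in D0, 37.3% ± 2.96 (SD, n = 4) in D1, 39.0% ± 3.43 (SD, n = 5) in D2 and 38.0% ± 5.23 (SD, n = 4) in D3. By slide the mean share was 36.9%, 39.7% and 41.3%, with each slide's range overlapping those of the others. Mouse 35 was counted on the slide of its first array. It counted as detecting a probe only where both of its arrays were marked, a stricter rule than for the other mice.

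Detection was higher on strand R than on strand F in all 18 mice, with means of 41.3% ± 4.05 and 36.2% ± 3.87 (SD, n = 18). By the group rule, 3029 of 7714 R probes (39.3%) and 2670 of 7890 F probes (33.8%) were detected. The F and R probes are different sequences, so probe set and strand cannot be told apart here. The 1042 regions probed on both strands gave a signal on both in 497 (47.7%), on F alone in 181, on R alone in 229 and on neither in 135. Among the 584 regions with equal numbers of probes on both strands, the counts were 263, 100, 130 and 91 in the same order. The split rested on the mark: with the positive and significant mark it was 882, 59, 72 and 29 of the 1042 regions. By length, the share of probes detected was 31.7% in regions of 62 to 794 bp, 40.5% in those of 795 to 7451 bp, 37.3% in those of 7476 to 21813 bp and 35.4% in longer ones. Probes of 1 strand often disagreed on detection: of 3258 region strands with at least 3 probes, 459 had every probe detected, 1682 had some and 1117 had none.

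The lung and the reference shared most of what was detected. Of all region probes, 4281 were well above background in both channels, 1418 in lung alone, 569 in the reference alone and 9336 in neither. For mRNA probes the counts were 16731, 2288, 805 and 6712 in the same order, so region probes were shared less often than mRNA probes. In D0 mice the log2 ratio of lung over reference of the 5692 region probes that could be tested had a median of 0.10 and quartiles of -0.13 and 0.39. It passed 2-fold in favour of lung for 8.06% of them and in favour of the reference for 4.59%. The mRNA probes spread more widely, with quartiles of -0.45 and 0.70, and passed 2-fold for 18.1% and 11.1%. Background was not subtracted from these signals, so ratios of dim probes lie closer to 0 than the RNA ratios do.

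A probe was called changed where its p, adjusted by Benjamini-Hochberg over all 30994 tested probes of the array, was at most 0.05 and its change at least 1.5-fold. At D3, 85 of 5692 region probes (1.49%) were called, against 2.43% of all tested probes. Of these 85, 32 were higher and 53 lower, 0.562% and 0.931% of the region probes, against 1.21% and 1.23% of all tested probes. The median change of region probes at D3 was -0.04 (log2), beside 0.03 for mRNA probes and -0.00201 for all tested probes. At D1, 41 region probes (0.720%) were called, against 1.06% of all tested probes. Of these, 15 were higher and 26 lower, beside background shares of 0.594% and 0.465%. At D2, 13 (0.228%) were called, against 0.626%, and 12 were higher and 1 lower, beside 0.436% and 0.19%. With the processed signals of the scanner software the shares lay closer together, at 2.06% of region probes and 2.06% of all tested probes at D1, 0.861% and 1.12% at D2, and 4.08% and 4.42% at D3. The linear trend over dose was called for 42 region probes (0.738%), against 1.46%, and 27 were higher and 15 lower, beside 0.92% and 0.536%. The comparisons of the 3 doses share the same D0 mice.

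By adjusted p alone, 502 region probes (8.82%) passed at D3, against 12.4% of all tested probes, and 341 of the 502 were lower. The lower probes were 5.99% of the region probes, against 6.37% of all tested probes, and the higher ones 2.83%, against 6.03%. The D0 and D3 mice did not overlap for 591 region probes (10.4%), against 14.6% of all tested probes. Among called probes the share was 87.1% of the 85 region probes (74) and 88.1% of all 754. Of the 32 region probes called higher, 3 were well above background in fewer than 4 D0 mice, so they entered the test only through dosed groups and are given below by detection. All 53 called lower were well above background in all 4 D3 mice. Within each of the 3 slides, all 85 called probes changed in the same direction as over all mice, which is a description, since the calls were chosen on this difference. The third slide held 1 D0 and 1 D3 array, and the 2 arrays of mouse 35 lay on different slides. The number of calls rested on the normalization. With each array centred on its median in place of loess, 14 region probes were called at D3, all 14 higher and all 14 among the 85, with 2 called at D2 (both higher), 11 for the trend (all 11 higher) and 0 at D1 (limma; 233 at an unadjusted p under 0.05). Over all 30994 tested probes the same centring left 98 calls at D3, 18 at D2, 12 at D1 and 74 for the trend. The changes of all 85 kept their direction there. This centring moved the median change of all tested probes to 0.06 at D3, 0.12 at D2 and 0.17 at D1. With the red channel alone the D3 calls split into 29 higher and 32 lower and the trend calls into 27 higher and 8 lower. When the processed signals were used, the D2 calls split into 36 higher and 13 lower, and with the authors' normalized ratios the D1 calls split into 10 higher and 32 lower. Without mouse 24 of D1 the D1 split was 7 higher and 34 lower. For the trend it was 26 higher and 25 lower with the slide as a block, and 23 were lower without mouse 2 or 5 of D0 or mouse 31 of D3.

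In all, 95 region probes (1.67%) were called at 1 dose or more, 52 on strand F and 43 on strand R, against 2.86% of all tested probes. They lay in 63 regions and on 63 region strands, and no region had calls on both of its strands. Merging called regions that overlap on 1 strand left 56 loci, of which 5 held 12 of the region strands. These loci are separate by position, and whether their signals are independent was not tested. The direction of a probe's calls never differed between doses. At all 3 doses 8 probes (0.141%) were called, 7 higher and 1 lower, against 0.31% of all tested probes. Among the 7, A_30_P01027010 was well above background in 1 of 5 D0 mice, so it entered the test only through dosed groups. It is also counted among the probes called higher at each dose and for the trend. At D3 alone 51 (0.896%) were called, against 1.54%, at D1 alone 8 (0.141%), against 0.265%, and at D2 alone 0. Regions with a call or named below are given a short name, the chromosome and a letter in order of position.

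The largest increases at D3 came from 3 loci. The first was region chr17-A on strand R (chr17:29183003-29217681), where 4 of 5 probes were tested. The 3 of them well above background in at least 4 D0 mice were called at D3, with changes of 0.73 to 1.60. Its probe A_30_P01020960 had log2 ratios of -0.72, -0.70, -0.61, -0.55 and -0.59 in the D0 mice and 0.22, 0.09, 0.29 and 0.46 in the D1 mice. In the D2 mice it read 0.13, 0.43, 0.61, 0.70 and 0.43, and in the D3 mice 1.09, 0.88, 0.90 and 0.98. Every dosed mouse lay above every D0 mouse, and every D3 mouse above every mouse of the other groups. The changes were 0.90 ± 0.10, 1.09 ± 0.10 and 1.60 ± 0.10 (SE) at D1, D2 and D3, with limma adjusted p of 7.5e-05, 1.73e-06 and 1.13e-08. The fourth, A_30_P01027010, was well above background in 1 of 5 D0 mice and in all mice of the dosed groups, and no change is given for it.

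The second was region chr4-E on strand F (chr4:149445201-149445902), a short interval of 702 bp whose 3 probes were all called at D3, with changes of 1.38 to 1.56. Probe A_30_P01025511 read -0.31, -0.27, 0.05, 0.11 and 0.04 in the D0 mice, 0.63, 0.39, 0.91 and 0.37 in the D1 mice and 0.36, 0.26, 0.74, 0.85 and 0.66 in the D2 mice. In the D3 mice it read 1.43, 1.42, 1.53 and 1.57. D1 and D2 overlapped each other between D0 and D3, and D3 lay above both without overlap. It rose by 1.56 ± 0.13 (SE) at the highest dose (limma adjusted p = 3.84e-07), 0.65 ± 0.13 (SE) at D1 and 0.65 ± 0.12 (SE) at D2 (limma adjusted p = 0.00758 and 0.00795). The D1 call was lost without mouse 24 (0.54), the D2 call without mouse 29 (0.58), and both with the red channel alone (0.54 and 0.56). The other 2 probes rose by 1.44 and 1.38 at D3.

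The third was region chr1-C on strand F (chr1:163508244-163586072), where all 5 probes were called at D3, with changes of 0.71 to 1.59. Probe A_30_P01026536 read -0.76, -0.57, -0.88, -1.01 and -0.93 in the D0 mice and 0.15, 0.12, -0.08 and 0.11 in the D1 mice. It read -0.18, -0.22, 0.38, -0.12 and -0.21 in the D2 mice and 0.71, 0.92, 0.63 and 0.79 in the D3 mice. Again no dosed mouse overlapped D0, and D1 and D2 overlapped each other through mouse 28 of D2, the highest of its group. The changes were 0.90 ± 0.12, 0.76 ± 0.11 and 1.59 ± 0.12 (SE) in rising order of dose, with limma adjusted p of 0.000338, 0.00078 and 5.7e-08. Probe A_30_P01025790 of the same strand rose by 1.22 ± 0.11 (SE) at D3 (limma adjusted p = 1.22e-06). The interval encloses 3 short regions probed on the same strand, chr1-D (chr1:163527603-163527999), chr1-E (chr1:163528200-163528398) and chr1-F (chr1:163528792-163529312). Of their 6 tested probes, 5 were called higher at D3, with changes of 0.76 or more, and the remaining probe changed by 0.44 (limma adjusted p = 0.00803). These 4 names thus describe 1 stretch of strand F.

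Other regions rose by less or less evenly. On strand R of chr3-D (chr3:121627545-121639470), 2 of 3 probes were called at D3. Probe A_30_P01019901 read 0.51 to 1.03 in the D0 mice (median 0.85), 1.32 to 2.06 in the D1 mice, 0.85 to 2.16 in the D2 mice and 1.69 to 2.10 in the D3 mice. The D2 mice spread over the D0 and D3 ranges, with 1 mouse inside the D0 range. The change was 0.94 ± 0.21 (SE) at D1 and 1.08 ± 0.21 (SE) at D3, with limma adjusted p of 0.0163 and 0.00294, and 0.58 ± 0.20 (SE) at D2 (limma adjusted p = 0.156). The D1 call was lost without mouse 21 (0.87) or mouse 24 (0.84). Its second probe, A_30_P01026923, rose by 1.22 ± 0.25 (SE) at D3 (limma adjusted p = 0.00328), while the third changed by 0.17 (limma adjusted p = 0.145). On strand F of chr17-H (chr17:71183978-71185384), 2 tested probes were well above background in all 4 D3 mice and in 0 and 2 of 5 D0 mice, and no change is given for them.

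The largest single decrease was on strand F of chr5-E (chr5:35975265-35982561). Probe A_30_P01024606 read -0.78, -0.59, -0.22, -0.33 and -0.80 in the D0 mice, -0.90, -1.09, -1.61 and -1.39 in the D1 mice and -1.25, -0.84, -1.48, -1.18 and -0.99 in the D2 mice. In the D3 mice it read -1.66, -1.63, -1.58 and -2.30. Every dosed mouse lay below every D0 mouse, and mouse 35 lay lowest of all. The change was -0.71 ± 0.17 (SE) at D1 and -1.25 ± 0.17 (SE) at D3, with limma adjusted p of 0.0253 and 0.000163, and the change at D2 was -0.61 ± 0.16 (SE; limma adjusted p = 0.0604). The D1 call was lost without mouse 3 (-0.62) or 4 (-0.65) of D0 or mouse 24 (-0.58) or 25 (-0.66) of D1. A second probe of this strand fell by 0.75 at D3 (limma adjusted p = 0.00306), and the other 2 changed by -0.15 and -0.08, which did not pass.

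On strand F of chr1-A (chr1:33965074-34060850), both tested probes of 3 were called at D1 and D3, and 1 of them was also the only region probe called lower at D2. That probe, A_30_P01031585, read 0.09, -0.06, 0.60, 0.55 and 0.34 in the D0 mice and -0.67, -0.18, -0.11 and -0.35 in the D1 mice. It read -0.21, -0.46, -0.49, -0.22 and -0.15 in the D2 mice and -0.66, -0.63, -0.94 and -0.51 in the D3 mice. The dosed mice lay below all D0 mice, and the changes were -0.63 ± 0.14, -0.61 ± 0.13 and -0.99 ± 0.14 (SE), with limma adjusted p of 0.0131, 0.0179 and 0.000176 at D1, D2 and D3. The calls at D1 and D2 were lost on leaving out mouse 3 of D0 (-0.56 and -0.54) or mouse 4 of D0 (-0.57 and -0.55). The D1 call was also lost without mouse 21 (-0.52), and the D2 call without mouse 26 (-0.57) or mouse 28 (-0.56) and with the red channel alone (-0.57). For the second probe, A_30_P01028770, the D1 call was lost without any of mice 3, 4, 22 and 25 (-0.56 to -0.47), with the slide as a block (-0.57), with mouse 23 placed in D1 (-0.56), with normexp background correction (-0.58) and with the red channel alone (-0.57), and its call at D3 (-0.83) was not.

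A pair of neighbouring regions on strand R of chromosome 19 fell evenly over their probes. In chr19-A (chr19:5798135-5800557) all 3 probes were called lower at D1 (-0.70 to -0.84) and at D3 (-0.68 to -0.83). Probe A_30_P01020935 read 1.91, 1.75, 2.37, 1.83 and 1.73 in the D0 mice, 0.99, 1.01, 1.18 and 1.11 in the D1 mice, 1.02, 1.59, 1.33, 1.35 and 1.70 in the D2 mice and 1.21, 1.16, 1.26 and 0.71 in the D3 mice. Its fall was as large at D1 (-0.84 ± 0.14, SE; limma adjusted p = 0.00259) as at D3 (-0.83 ± 0.14, SE; limma adjusted p = 0.00107), and the change at D2 was -0.52 ± 0.14 (SE; limma adjusted p = 0.0531). In chr19-B (chr19:5801802-5802597) all 3 probes were called lower at D3, with changes of -0.64 to -0.72. Of these, 2 were among the 6 region probes with the highest red signal in D0 mice. The fall of A_30_P01031754 at D3 was -0.67 (limma adjusted p = 0.00386), and it was not called with the processed signals (-0.45), the authors' normalized ratios (-0.45) or the red channel alone (-0.15), nor without mouse 3 of D0 (-0.55) or mouse 32 of D3 (-0.57). The other of the pair, A_30_P01028215, was not called with the red channel alone (-0.52) or the authors' normalized ratios (-0.58). The other 4 of the 6 brightest probes were not called: those of chr14-C and chr6-A on strand F changed by -0.53 (limma adjusted p = 0.0107) and -0.50 (limma adjusted p = 0.0199), under the 1.5-fold threshold, and those of chr7-D and chr11-B on strand R by -0.24 and -0.14 (limma adjusted p = 0.129 and 0.276).

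Even falls were also seen on strand F of chr17-E (chr17:39983902-39985688), where 3 of 3 probes were called at D3 (-0.68 to -0.70), and on strand R of chr8-A (chr8:72105642-72105922), with 3 of 3 called (-0.60 to -0.67). On strand F of chr4-B (chr4:126710640-126721240), 4 of 5 tested probes were called at D3. Its probe A_30_P01032760 read 0.17 to 0.43 in the D0 mice and -0.51 to -0.42 in the D3 mice, a change of -0.79 ± 0.09 (SE; limma adjusted p = 2.92e-05). On strand F of chr3-C (chr3:85783094-85783408), 2 of 3 probes were called at D3 and the third changed by -0.54 (limma adjusted p = 0.000672). Under median centring none of these lower calls passed at D3, and the 14 calls that did lay on strand R of chr17-A and strand F of chr4-E, chr17-H and the 4 chr1 regions. Of these 14, 3 are the probes with fewer than 4 D0 mice well above background.

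A few regions were called at D1 or D2 and not at D3. On strand F of chr17-J (chr17:95150800-95180650) the 1 tested probe, A_30_P01019123, read -3.72 to -3.49 in the D0 mice, -2.99 to -2.45 in the D1 mice, -3.18 to -2.49 in the D2 mice and -3.55 to -2.72 in the D3 mice. No D1 or D2 mouse overlapped D0, while 2 D3 mice did. The change was 0.96 ± 0.16 (SE) at D1 and 0.77 ± 0.15 (SE) at D2, with limma adjusted p of 0.0023 and 0.0108, and 0.41 ± 0.16 (SE) at D3 (limma adjusted p = 0.103). The overlapping region chr17-I on the same strand had changes of 0.59 and 0.61, called at D1 and D2, and 0.33 at D3 (limma adjusted p = 0.0854). On strand R of chr17-C, 2 of 3 probes were called higher at D1 (0.77 and 0.64) and none at D3. All of these probes were far brighter in the reference than in lung, with mean log2 ratios in D0 mice of -3.64, -3.00, -3.88 and -3.64. The difference between the changes at D1 and D3 was not tested. Among decreases at D1, the largest after chr19-A that met the naming rule were single probes of chr6-B on strand R (-0.82) and of chr4-A and chr7-C on strand F (-0.82 and -0.80), with limma adjusted p of 0.00113, 0.00649 and 0.00107. At D3 the same 3 probes changed by -0.78, -0.78 and -0.80, each called, and with the red channel alone the D3 calls of chr4-A (-0.63) and chr7-C (-0.65) and the D1 call of chr4-A (-0.72) were lost. For none of the 3 was another tested probe of its strand called.

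Probes of 1 strand did not always move together. Of the 54 region strands with a call at D3, 39 had at least 3 tested probes. All tested probes were called in 8 of the 39, only 1 was called in 24, and all had the same sign in 29. In 12 of the 39, every tested probe passed the adjusted p. Over the 1429 region strands with at least 2 tested probes, the D3 changes of the first 2 had a Pearson r of 0.60 (Spearman rho 0.50), and over 497 regions the changes of the brightest F and the brightest R probe had an r of 0.16 (rho 0.17). Both are across probes measured on the same arrays and are given as descriptions. When the tested probes of a strand were averaged per mouse before the fit, an alternative added after the data were seen, 20 of 2699 region strands were called at D3, 10 higher and 10 lower, against 2.46% of all features in that fit. The 10 higher include strand F of chr17-H, whose 2 tested probes were well above background in fewer than 4 D0 mice, and strand R of chr17-A, averaged over 4 probes of which 1 was. At D1 there were 7, against 1.05%, and at D2 6, against 0.668%.

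The strands of 1 region were compared directly where both had a tested probe and a tested probe was called at D3 on 1 strand. In each of these 24 regions the brightest probe of F and of R was taken, so each comparison is of 1 probe with 1 probe. The per-mouse difference of their log2 ratios was compared between D3 and D0 by a 2-sided exact permutation test, adjusted over 24 regions. In 10 regions the difference had an adjusted p of 0.019, each with the smallest p that 5 against 4 mice allow, 0.00794, and 14 had an unadjusted p of at most 0.05. The regions entered because 1 strand was called on the same mice, which raises the difference and lowers its p, so these values are given as a description. An alternative added after the data were seen does not use the calls: the same difference was fitted with limma in all 497 regions with a tested probe on both strands and adjusted over the 497. At D3 21 regions passed, 9 of them among the 24 with a call. With the tested probes of each strand averaged first, 24 of the 497 passed, 6 of them among the 24 with a call.

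The widest difference was in chr1-C, where the brightest F probe rose by 1.59 and the R probe changed by -0.29 (limma adjusted p = 0.182), a difference of 1.88. The R probe A_30_P01017790 read 0.27 to 0.95 in the D0 mice and 0.13 to 0.41 in the D3 mice, which overlap, and the other tested R probe changed by 0.03. Over all 497 regions the difference had a limma adjusted p of 5.52e-06, and with averaged probes it was 1.17 (limma adjusted p = 1.33e-06). In chr5-E the F probe fell by 1.25 and the R probe changed by 0.22 (limma adjusted p = 0.161), a difference of -1.47 that narrowed to -0.71 with averaged probes (limma adjusted p = 5.52e-06 over the 497). In chr1-A the F probe changed by -0.99 and the R probe by -0.24 (limma adjusted p = 0.329), a difference of -0.76, or -0.68 with averaged probes (limma adjusted p = 0.00573). In chr11-G the F probe changed by -0.50 and the R probe by 0.49, a difference of -0.99, or -0.88 with averaged probes (limma adjusted p = 4.63e-05), and 1 of the 4 R probes changed by -0.06. These 4 regions and 1 of chromosome 18 passed both limma fits over the 497 regions.

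In the other 5 of the 10 the averaged probes did not pass. The difference was -0.78 in chr11-D, -0.67 in chr17-D and -0.62 in chr7-C, and in each the remaining F probes changed by less than the one used (-0.09 to -0.0046, -0.29 to -0.07 and -0.05). The F probes used in chr11-D and chr7-C shared a pattern over the D0 mice, with mice 1 and 3 highest and mice 2 and 5 lowest. Whether these differences are independent was not tested. In chr17-B the F probe used was called higher (0.68) and the other 2 changed by -0.35 and -0.21, so the difference of 0.70 rests on 1 probe whose strand did not move together. In chr4-B all 5 F probes changed by -0.79 to -0.45, and its difference of -0.52 passed neither limma fit over the 497 regions (adjusted p = 0.0825 and 0.0664).

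In the other 14 regions a difference did not pass the exact test, and in several the brightest probes of both strands moved the same way. In chr12-A (chr12:73838608-73862621) the F probe, A_30_P01020570, changed by -0.69 and the R probe by -0.49, with limma adjusted p of 0.00201 and 0.00445, and the difference of -0.20 had an exact permutation adjusted p of 0.12. The D3 call of that F probe was lost with the red channel alone (-0.50, limma adjusted p = 0.106). In chr5-D the changes were -0.55 on F and -0.56 on R, a difference of 0.02 (exact permutation adjusted p = 0.787), and in chr14-D they were -0.62 and -0.52. The other tested probes of chr12-A changed by -0.05 on F and by -0.08 and -0.25 on R. Those of chr5-D changed by -0.68, -0.02 and 0.06 on F and by -0.14 and -0.11 on R. In chr14-D the others changed by -0.27 to -0.08 on F and by -0.40 to -0.03 on R. With the processed signals 6 differences passed the exact test.

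Few region probes changed from not detected to detected. Between D0 and D3, 4 region probes were well above background in 0 of 5 D0 mice and in all 4 D3 mice, and 2 showed the reverse. No fold is given for these, since 1 group has no signal well above background. The same counts over all probes of the array are not given here, so region probes cannot be set against the rest. Of the 5699 detected region probes, 4258 met the detection rule in all 4 groups, 223 in D0 alone, 14 in D1 alone, 201 in D2 alone and 40 in D3 alone. The rule asks for 4 mice, which is all mice of D1 and D3 but not of D0 and D2, so these counts are not comparable between groups of 4 and of 5 mice.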

How the data were processed

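Lung RNA and a reference RNA were hybridized to 19 two-colour arrays. Per spot, the deposited scanner files give intensity values (median pixel brightness) and detection marks, made with Feature Extraction 11.0.1.1 per the file headers; the release and scanner named in the study's methods differ. A deposited table holds log2 ratios normalized by the authors, with Pearson correlations to the ratios used here of 0.995 to 0.998 per array. Following the study, background was not subtracted from the median signals, and loess (span 0.3) was applied within arrays. Control spots (3671 of 62976) and outlier spots (171 to 323 per array) were left out, and replicate spots were averaged. Of 55681 probes, 80 lacked a value in some mouse (21 of them region probes). A probe was tested if its red signal was well above background in at least 4 mice of any group; 30994 probes met this. All groups entered 1 model (limma 3.58.1, R 4.3.3; lmFit and eBayes), with Benjamini-Hochberg adjustment over all tested probes. MAANOVA, used by the study, was not installed. The trend was a linear contrast in dose, with the same thresholds on its fitted D3 change. The procedure was tested on simulated data.

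Named probes are the 8 largest changes each way at D3 and 4 each way at D1 and D2 that passed both thresholds with every mouse of the group on that side of the D0 mean, the 4 largest trends each way, the 6 probes with the highest red signal in D0 mice, and 4 regions with both strands detected in all mice and the largest mean change. Other probes named were chosen after their values were seen. The members and lists were chosen with earlier results of these data known. Each slide was also fitted as a block, and alternatives of background correction, normalization, filter and mouse assignment were computed. Genes neighbouring the regions and the sequences of the probes were not used here, since no annotation of build mm9 was at hand. No dyes were swapped, so ratios are open to dye bias. No spot was saturated, and the number of arrays limits the precision. Mice are separate animals per the labels.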

Additional observations from a re-analysis of the deposited data

Results flagged for a closer look

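Among 128 groups of 4 or 5 mice examined for 1 value far from the rest, 6 were flagged, and chance alone flags about 5% of groups. Of these, 3 were mouse 35 of D3, the lowest of its group each time. Its log2 ratio was -2.30 on chr5-E strand F, beside -1.66 to -1.58 in the other D3 mice, 0.20 on chr7-D strand R, beside 0.57 to 0.61, and -0.16 on chr11-B strand R, beside 0.11 to 0.15. Mouse 28 of D2 read 0.38 on chr1-C strand F (A_30_P01026536), beside -0.22 to -0.12 in the other D2 mice. Mouse 3 of D0 read 2.37 on chr19-A strand R (A_30_P01020935), beside 1.73 to 1.91, and mouse 21 of D1 read 0.84 on chr7-D strand R (A_30_P01030669), beside 0.54 to 0.58.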

How the results depend on the processing

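The counts of called region probes moved most with the signals used and their normalization. With the processed signals of the scanner software, 117 region probes were called at D1, 49 at D2, 232 at D3 and 106 for the trend (2.06%, 0.861%, 4.08% and 1.86%, against 2.06%, 1.12%, 4.42% and 2.40% of all tested probes). With median centring the counts were 0, 2, 14 and 11. Of the 85 D3 calls, 77 were also called with the processed signals, 81 with normexp background correction, 52 with the red channel alone, 75 with the authors' normalized ratios, 82 with the slide as a block and 14 with median centring, and all 85 kept their direction in each of these. Leaving out 1 mouse at a time gave 30 to 50 calls at D1, 11 to 16 at D2, 70 to 91 at D3 and 37 to 51 for the trend. With mouse 23 placed in D1, the counts were 32 at D1, 16 at D2, 85 at D3 and 44 for the trend. Over all tested probes that setting gave 284, 220, 753 and 481 calls in the same order.

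With the probes of a strand averaged, 7, 6, 20 and 12 region strands were called at D1, D2, D3 and for the trend, in place of 34, 10, 54 and 24 strands with a called probe. With the software's positive and significant mark in place of the well above background mark, 4953 F and 5187 R probes were detected, and regions fell into 882 on both strands, 59 on F alone, 72 on R alone and 29 on neither. Leaving out 1 mouse at a time gave 2590 to 2714 F probes and 2941 to 3072 R probes, 476 to 508 regions on both strands, 180 to 188 on F alone, 224 to 239 on R alone and 127 to 143 on neither.

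The strand differences that passed numbered 6 with the processed signals, 6 of the 24 regions with limma over all 497 regions and averaged probes, and 0 to 10 with 1 mouse left out. The 0 came from leaving out any D0 mouse, where 4 against 4 mice allow no exact permutation p below 0.0286; 10 to 12 regions then had an unadjusted p under 0.05. The differences that turned sign had not passed: chr5-A (0.22), chr5-C (-0.13), chr11-E (0.14) and chr17-G (-0.046) with the processed signals; chr11-E (0.014), chr14-D (0.080) and chr5-D (-0.37) with the red channel alone; and, with 1 mouse left out, chr5-D (-0.018 to 0.055) and chr17-G (-0.12 to 0.18). Among named probes, the D3 change of chr11-B strand R turned to 0.057 with the processed signals, 0.069 with the deposited log2 table and 0.10 with median centring, and that of chr7-D strand R to 0.0089 with median centring. The cause was not tested.

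No paired analysis was possible by mouse number because the numbers are not shared between groups; the slide was fitted as a block. The depth of an array is not counted; region probes detected in no mouse (37.1%) have no measured change.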

Other observations

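On 11 region strands with at least 3 tested probes, 1 probe was called lower at D3 and no other tested probe passed the adjusted p. These 11 lone probes changed by -0.78 to -0.59 at D3 (median -0.65), by -0.82 to -0.34 at D1 (median -0.60) and by -0.55 to -0.23 at D2 (median -0.41). The other 36 tested probes of the same strands had median changes of -0.07, -0.07 and -0.04 at D3, D1 and D2. For 9 of the 11, the D0 and D3 mice did not overlap, beside 88.1% of all called probes, and the calls had chosen them. Probe A_30_P01024297 on strand R of chr6-B (chr6:121035216-121035648) is 1 of them. Its lowest and median values were 0.57 and 0.85 in the D0 mice, and it read 0.10, -0.13, 0.07 and 0.02 in the D1 mice and -0.05, 0.26, 0.13 and -0.14 in the D3 mice. Only 1 lone probe was called higher, on strand R of chr17-G, where the 3 other tested probes changed by -0.26 to -0.08; its own change at D3 was 0.65. Some called probes of different chromosomes shared a pattern over the D0 mice, with mice 1 and 3 highest and mice 2 and 5 lowest. That held for A_30_P01024297 and for the lone probe of chr11-D strand F (0.92, 0.53, 0.87, 0.62 and 0.49 in mice 1 to 5). It also held for the called F probe of chr4-A (1.08, 0.62, 1.01, 0.71 and 0.55). The lone probe of chr3-B strand R did not share it (1.94, 2.04, 2.17, 2.57 and 2.13). Whether such probes carry separate signals was not tested. The lone probes were picked for their values, so the figures are a description, and what sets them apart was not tested.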
